A study of Rattus norvegicus with 6 samples.

Results

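The Slit-Robo genes are described here in the amygdala of adult male Sprague Dawley rats killed 1 h after an intraperitoneal injection of saline (control) or of ethanol at 1 g/kg. The members are the 4 roundabout receptors (Robo1 to Robo4), their 3 secreted Slit ligands (Slit1 to Slit3) and the 3 Slit-Robo GTPase-activating proteins (Srgap1 to Srgap3). These 10 genes were chosen by symbol from the 38445 genes counted, and all 10 were among the 18141 genes with enough reads to be tested. The rats were wild type, and each library combined the RNA of 2 of them, which made 3 libraries from the 6 rats of a group. Per the study's methods, the dissected tissue took in the central, medial and basolateral nuclei. With pooled bulk tissue, a change in RNA per cell cannot be told apart from a change in the number of cells that express a gene.

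Slits are large secreted proteins that bind the immunoglobulin domains of Robo receptors on growing axons, migrating cells and vessels, and the bound receptor turns the cell away from the source. Inside the cell, the srGAPs bind Robo tails, switch off small GTPases such as Cdc42 and Rac1 and bend membranes through their F-BAR domains, which links the signal to the actin cytoskeleton. In the adult brain these proteins are best known for roles in dendrites, spines and synapses.

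The 6 libraries held 62576504 to 70755739 reads assigned to genes, so 3 counts correspond to 0.0424 to 0.0479 CPM (counts scaled to the size of each library), a limit that covers counting error only. Lists of marker genes were summed in each library to show what tissue it held. The summed markers of amygdala nuclei (9 genes, led by Lmo3 and Sst) lay between 458 and 546 CPM. Markers of choroid plexus epithelium (10 genes, led by Ttr and Clic6) were 524 to 1135 CPM in controls. They were 13.4, 14.7 and 486 CPM in ethanol libraries 1, 2 and 3, so the summed groups did not overlap. Ttr made up most of the sum in the controls and in ethanol 3. Of the 9 genes tested, the groups did not overlap for 4 (44.4%, against 8.85% of all genes). Clic6 overlapped, with 11.3 CPM in control 1 and 12.9 CPM in ethanol 3. Ttr, the thyroid hormone carrier made by the choroid plexus, had 462, 996 and 817 CPM in the controls and 5.42, 4.34 and 425 CPM in the ethanol libraries (edgeR quasi-likelihood, adjusted p = 1.0), and Otx2, of the same list, had 1 read in all. Markers of pallial glutamatergic neurons (8 genes, led by Slc17a7 and Nrn1) ranged over 2.01 times between libraries, with overlapping groups. Markers of striatal-type GABA neurons (Penk and Ppp1r1b) ranged over 1.66 times, of endothelium (Flt1 and Cldn5) over 1.12 times, of leptomeninges (Igf2 and Col1a1) over 2.67 times and of astrocytes (Aqp4 and Slc1a3) over 1.33 times, also with overlapping groups. The leptomeningeal markers Col1a2 and Ogn had 0 reads in every library, and whether their RNA was absent or left uncounted was not tested.

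To order the genes, reads were also scaled to the length of their exons, which gives RPKM. On this scale Srgap3 and Slit1 were the most abundant members and the vascular and commissural receptors the least. Srgap3, a neuronal srGAP that acts in the formation of dendritic spines, had the highest mean over the 6 libraries at 30.0 RPKM, followed by Slit1, a ligand made by neurons, at 26.8 RPKM. The ranges of Srgap3 and Slit1 overlapped, so their order is not resolved. Slit1 stood 2.69 times above the next gene, Srgap2, and its lowest library (18.1 RPKM) was above the highest library of Srgap2 (10.3 RPKM). This gap rests on the annotated exon lengths, 5316 bases for Slit1 and 11314 for Srgap2. In CPM the ranges of Slit1 (96.3 to 190) and Srgap2 (108 to 117) overlapped. Srgap2, which controls spine maturation, came next at 9.96 RPKM, then Slit3 at 8.82 RPKM, Robo2 at 7.99 RPKM and Slit2 at 7.11 RPKM. The ranges of neighbours among these 4 genes overlapped. Srgap1 (3.53 RPKM) and Robo1 (3.13 RPKM) formed a lower pair with overlapping ranges. Robo3 and Robo4 lay lowest, at 0.504 RPKM each, and Robo1 was 6.20 times above Robo3.

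**Figure D1:**
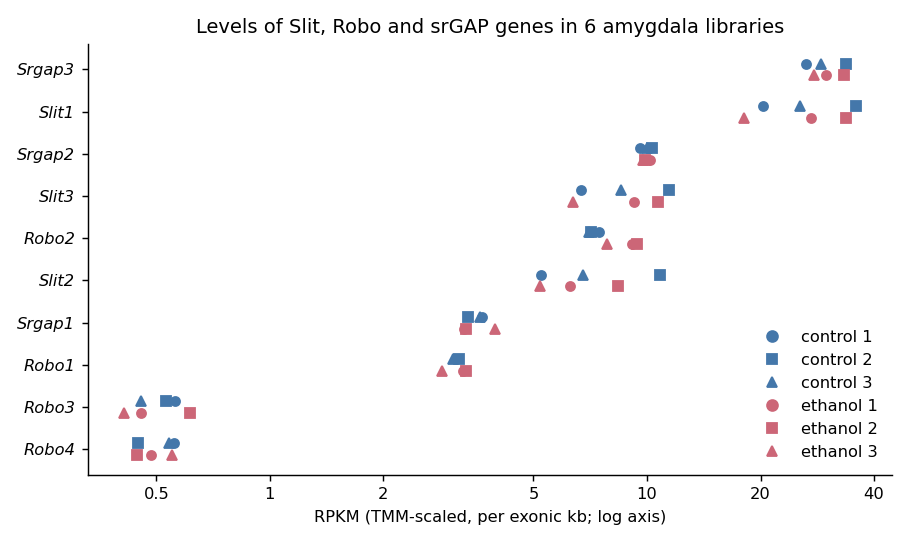
RPKM of the 10 genes (log axis) in each of 3 control and 3 ethanol libraries, ordered by the mean. Srgap3 (mean 30.0 RPKM) and Slit1 (18.1 to 35.8 RPKM) lie highest, Robo3 and Robo4 (means of 0.504 RPKM) lowest, and the points of the Slit genes spread far more than those of Srgap2.

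Of the 10 members, 0 had an adjusted p below 0.2, the study's threshold, by the quasi-likelihood test of edgeR with p-values adjusted after Benjamini and Hochberg over 18141 genes, against 0% of all genes tested (smallest adjusted p of any gene 0.818). At an unadjusted p below 0.05 there was 1 member, Robo2, against 4.15% of all genes (753 genes). Robo2 was higher after ethanol, as were 1.57% of all genes at that p. For 1 member, again Robo2, the 2 groups of libraries did not overlap, against 8.85% of all genes (3.65% with ethanol higher and 5.19% with ethanol lower). The count of members with an adjusted p below 0.2 was also 0 with edgeR's likelihood ratio test, DESeq2 and limma-voom. With these tests 77 (0.424%), 75 (0.422%) and 0 of all genes had one. The median log2 fold change was -0.01 for the members and 0.01 for all genes tested, with 3 members higher and 7 lower in the ethanol group.

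**Figure D2:**
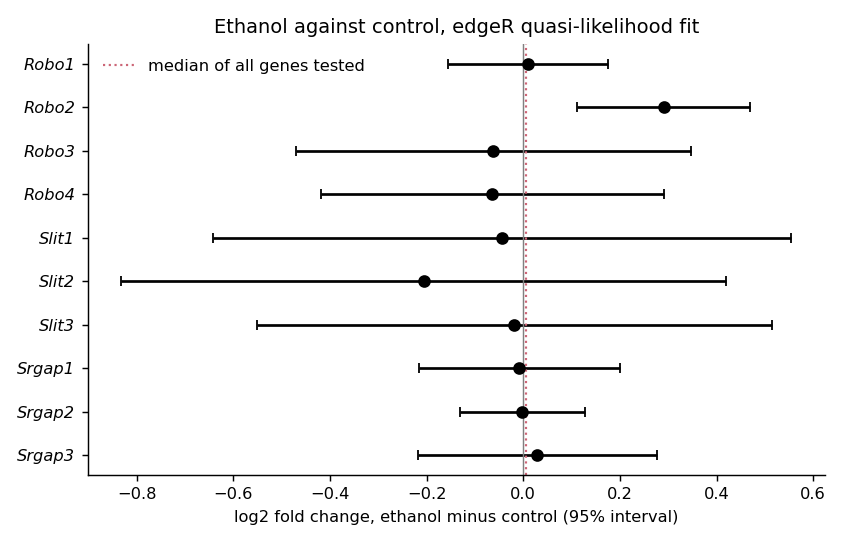
Log2 fold change (ethanol minus control) of each gene with its 95% interval from the edgeR fit on 3 libraries per group, and the median of all genes tested as a dotted line. The interval of Robo2 runs from 0.11 to 0.47 and does not include 0, while the other 9 intervals do.

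Robo2, the roundabout receptor with the highest level here, was the member in which the groups separated. In Rnor_6.0 it occupies chromosome 11, bases 11062866 to 12618793, on the minus strand, in 32 exonic blocks of 11376 bases together, within a span of 1555928 bases. Its level was 84.6, 80.7 and 79.8 CPM in the control libraries and 104, 107 and 89.1 CPM in the ethanol libraries. Every ethanol library was above every control, and ethanol 3 was the closest to the controls. The controls differed among themselves by only 1.06 times. The control mean was 81.7 ± 2.58 CPM (SD, n = 3) and the ethanol mean 100.0 ± 9.50 CPM (SD, n = 3). The log2 fold change was 0.29 with a standard error of 0.08 and a 95% interval of 0.11 to 0.47, or 1.22 times (1.08 to 1.39). The difference did not pass the threshold over all genes (edgeR quasi-likelihood, unadjusted p = 0.00595, adjusted p = 1.0), and its p ranked 106 among 18141 genes. Its adjusted p was 0.327 with edgeR's likelihood ratio test and 0.354 with DESeq2, also above 0.2. The paper reports genes that passed its threshold in its RNA-seq data. It took Robo2, as raised after ethanol, from networks of such genes and reports a similar change by quantitative PCR. The main quasi-likelihood fit here called 0 of all genes, so it did not reproduce a call of Robo2. Why the analyses differ was not tested. A 2-sided exact permutation test on the 6 libraries gave p = 0.1, the smallest that 3 against 3 allow. Without ethanol 3, the log2 fold change of Robo2 was 0.37 and its adjusted p 0.12 (edgeR quasi-likelihood), which passes the threshold. That fit called 83 of all genes and had 1629 at an unadjusted p below 0.05, against 0 and 753 with all 6 libraries. Over the other fits with 1 library left out or another setting, its log2 fold change was at least 0.24.

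The libraries in which Robo2 was high also differed in other ways. Ethanol 1 and ethanol 2 had the lowest choroid plexus markers (13.4 and 14.7 CPM) and the highest Robo2, and ethanol 3 had 486 CPM of these markers. Tbr1, a transcription factor of pallial neurons, also had every ethanol library above every control, with means of 21.3 ± 1.44 and 14.6 ± 0.758 CPM (SD, n = 3). It was the only 1 of the 8 pallial markers whose groups did not overlap (12.5%, against 8.85% of all genes). Its p was the smallest of all genes tested (edgeR quasi-likelihood, adjusted p = 0.818). The summed pallial markers did not separate the groups, with 625, 1067 and 797 CPM in the controls and 947, 1231 and 613 CPM in the ethanol libraries. Within the ethanol libraries Robo2 had the order of the pallial markers, highest in ethanol 2 and lowest in ethanol 3, while within the controls it was highest in control 1, where these markers were lowest. The part of tissue make-up in the Robo2 difference was not tested.

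The promoter of Robo2 is shown because Robo2 is the member whose groups separated, and those of Robo1 because it is the paralog whose groups overlapped. Sequences are the 250 bases before each RefSeq start in build GRCr8, not the build of the counts, and capitals mark matches to an E-box (CAGCTG) or a GC box (GGGCGG) on either strand.
Robo2, chr11:26526413-26526662, minus strand: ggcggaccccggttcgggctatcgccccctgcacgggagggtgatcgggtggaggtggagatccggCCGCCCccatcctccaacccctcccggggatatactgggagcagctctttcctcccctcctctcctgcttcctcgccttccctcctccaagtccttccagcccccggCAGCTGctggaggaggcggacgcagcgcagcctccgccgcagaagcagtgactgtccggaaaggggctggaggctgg
Robo1, upstream start, chr11:24067706-24067955, plus strand: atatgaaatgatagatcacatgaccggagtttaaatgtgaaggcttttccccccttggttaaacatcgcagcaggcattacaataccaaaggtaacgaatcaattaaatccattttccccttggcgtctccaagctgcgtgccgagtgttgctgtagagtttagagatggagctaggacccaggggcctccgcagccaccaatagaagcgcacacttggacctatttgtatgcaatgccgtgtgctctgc
Robo1, downstream start, chr11:24714445-24714694, plus strand: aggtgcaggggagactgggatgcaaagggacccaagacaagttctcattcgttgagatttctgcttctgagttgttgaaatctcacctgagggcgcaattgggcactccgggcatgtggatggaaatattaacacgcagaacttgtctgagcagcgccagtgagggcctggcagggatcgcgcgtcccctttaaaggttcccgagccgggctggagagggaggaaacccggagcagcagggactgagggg
The Robo2 window was 69.2% G and C, against a median of 51.2% over 33465 RefSeq windows of the same length. The Robo1 windows were 48.0% and 57.2% G and C. The Robo2 window held 1 E-box starting 77 bases before the start and 1 GC box starting 184 bases before it. Neither Robo1 window held CAGCTG or GGGCGG on either strand, and other forms of the E-box were not searched. Of all windows, 11.97% held an E-box and 30.5% a GC box. A cAMP response element (TGACGTCA), a full palindromic glucocorticoid response element and a TATA box (TATAAA) were also searched on both strands, and none of the 3 windows held one. Of all windows, 1.59%, 0.012% and 12.9% held one. These matches describe letters only, and binding was not measured in these data. Windows were found for 8 of the 10 members, not for Slit1 or Slit2.

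Robo1, the closest relative of Robo2 and its neighbour on chromosome 11 (9079291 to 10146302, plus strand), was nearly level. It had 36.0, 36.5 and 35.1 CPM in the controls and 37.4, 38.1 and 33.0 CPM in the ethanol libraries. The ethanol libraries lay on both sides of the controls. Its log2 fold change was 0.01 with a 95% interval of -0.16 to 0.18, so a change beyond 0.898 to 1.13 times lies outside the interval (edgeR quasi-likelihood, adjusted p = 1.0).

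The balance of Robo2 to Robo1 was taken within each library, where scaling between libraries cancels. Per exonic length, Robo2 exceeded Robo1 by 2.38, 2.24 and 2.30 times in the controls and by 2.81, 2.84 and 2.74 times in the ethanol libraries. All ethanol ratios were above all control ratios, and ethanol 3, which was closest to the controls in Robo2 itself, lay well above them here, its Robo1 being the lowest of all libraries. The mean ratio was 2.31 ± 0.0716 (SD, n = 3) in controls and 2.80 ± 0.0553 (SD, n = 3) after ethanol. The ratio was formed after the levels had been seen and is given without a test. Robo2 was already known to separate and Robo1 to be nearly level, so the separation of the ratio came in part with that choice.

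**Figure D3:**
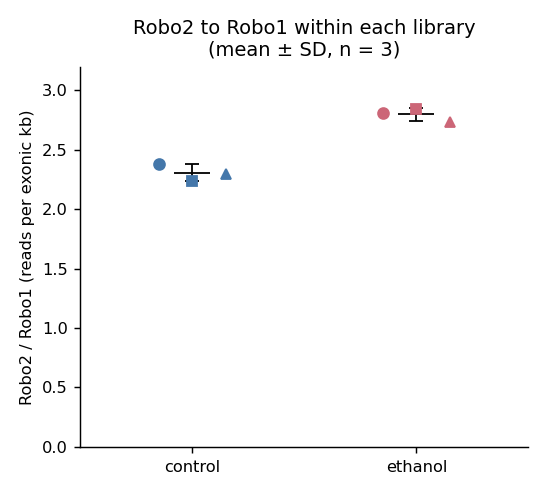
Ratio of Robo2 to Robo1 reads per exonic kilobase in each library, with the mean and SD of 3 libraries per group (axis from 0). Control ratios lie between 2.24 and 2.38 and ethanol ratios between 2.74 and 2.84.

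Robo3 and Robo4 were at the bottom of the family. Robo3 is the receptor of commissural neurons, which in mammals responds to Nell2 rather than to Slits. It had 225, 231 and 177 reads in the controls and 180, 242 and 176 in the ethanol libraries, or 2.53 to 3.76 CPM, and the groups overlapped. Nell2, its ligand, was abundant, with 444, 643 and 541 CPM in controls and 658, 728 and 440 CPM after ethanol, also overlapping. Robo4 is the roundabout receptor of endothelial cells. It had 116 to 155 reads per library, or 1.80 to 2.26 CPM, and the groups overlapped. The endothelial markers had 199 to 223 CPM summed. The log2 fold changes of Robo3 and Robo4 were both -0.06, with 95% intervals of -0.47 to 0.35 and -0.42 to 0.29. Differences within these limits were not resolved by 3 libraries a group. Both lie on chromosome 8, Robo3 from 39892792 to 39923735 on the minus strand and Robo4 from 39878900 to 39891485 on the plus strand, and they share no exonic bases.

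**Figure D4:**
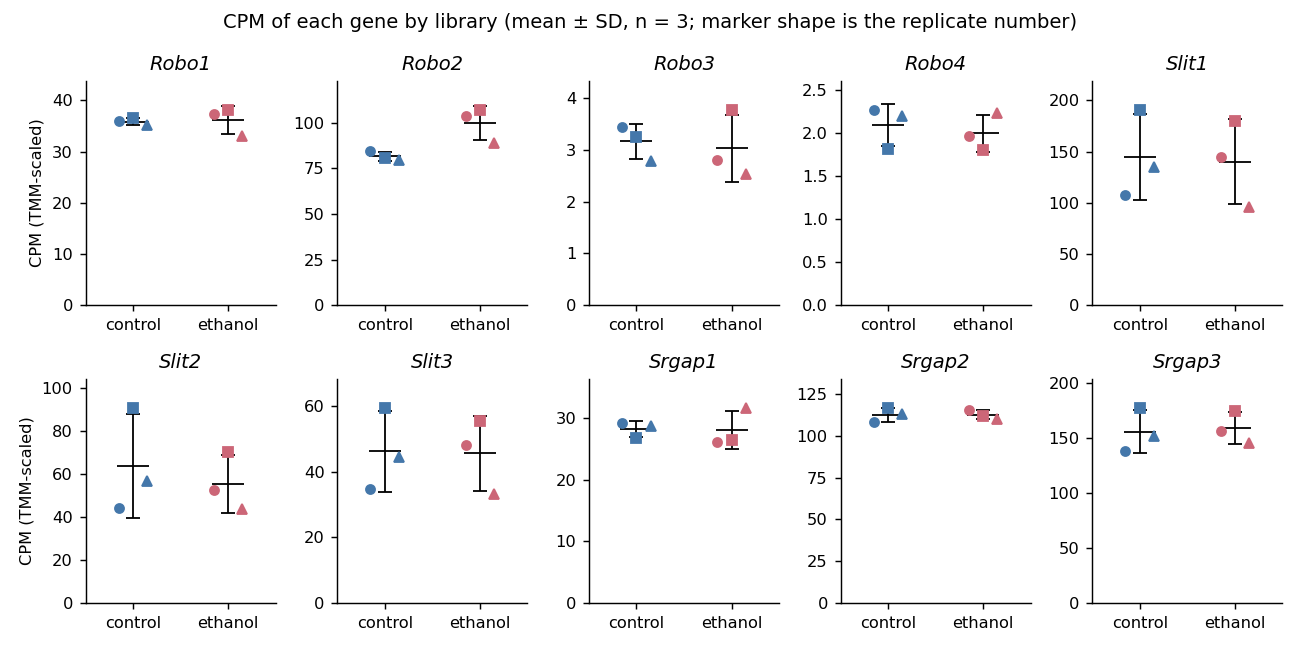
CPM of each gene in each library, with the mean and SD of 3 libraries per group (axes from 0; marker shape gives the replicate number). Robo2 is the gene in which all ethanol points (89.1 to 107 CPM) lie above all control points (79.8 to 84.6 CPM).

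The 3 ligands varied most, and did so together. Slit1 had 108, 190 and 135 CPM in the controls and 145, 180 and 96.3 CPM in the ethanol libraries. Slit2, the ligand best known for guiding forebrain axons and vessels, had 43.9, 90.6 and 56.6 CPM in the controls and 52.3, 70.0 and 43.5 CPM in the ethanol libraries. Slit3 had 34.7, 59.4 and 44.3 CPM in the controls and 48.1, 55.6 and 33.2 CPM in the ethanol libraries. In each of these 3 genes control 2 was the highest control and control 1 the lowest, and ethanol 2 was the highest ethanol library and ethanol 3 the lowest. The highest library exceeded the lowest by 1.98 times for Slit1, 2.08 times for Slit2 and 1.79 times for Slit3, and the groups overlapped.

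Because of this spread, the comparison of the groups was imprecise for the ligands. The log2 fold changes were -0.04 for Slit1, -0.21 for Slit2 and -0.02 for Slit3, with standard errors of 0.26, 0.27 and 0.23 (edgeR quasi-likelihood, adjusted p = 1.0 for each). Their 95% intervals ran from -0.64 to 0.55, from -0.83 to 0.42 and from -0.55 to 0.51, so changes of up to about 1.34 to 1.47 times upward or to 0.562 to 0.682 times downward lie inside them. The direction rested on single libraries. Without control 2, the highest of all, the log2 fold changes of Slit1, Slit2 and Slit3 were 0.21, 0.14 and 0.21.

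The order of the libraries was the same for the Slits as for the summed pallial markers, which were highest in control 2 (1067 CPM) and ethanol 2 (1231 CPM) and lowest in control 1 (625 CPM) and ethanol 3 (613 CPM). Slc17a7, the vesicular glutamate transporter of pallial neurons that dominates this sum, had 413, 770 and 554 CPM in the controls and 668, 879 and 425 CPM in the ethanol libraries. Of the 10 members, 4 had this order in both groups (Slit1, Slit2, Slit3 and Srgap3), as had 8.30% of all genes tested. Robo4 had the order of the striatal-type markers (5.80% of all genes). For the amygdala, choroid plexus, endothelial, leptomeningeal and astrocyte lists, 0 of the 10 members matched. Of all genes tested, 2.67%, 2.87%, 2.59%, 1.53% and 5.88% had these orders. With 10 members, a count of 0 is not told apart from these shares. The part of tissue make-up in the spread of the Slits was not tested.

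**Figure D5:**
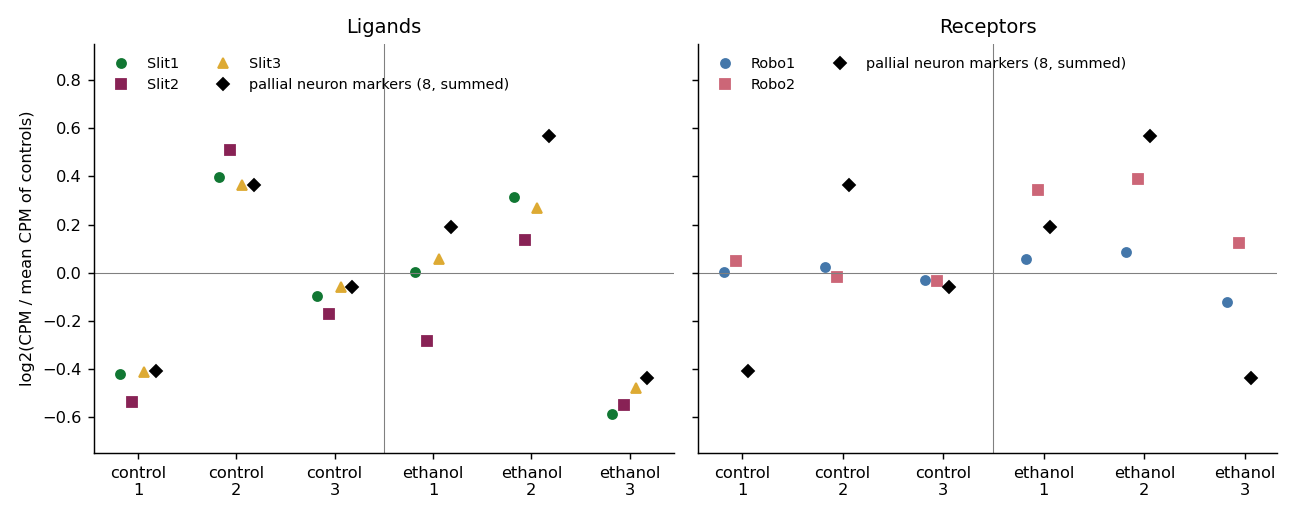
Log2 of CPM over the control mean in each library for the ligands (left) and for Robo1 and Robo2 (right), beside the sum of 8 pallial neuron markers (black diamonds, both panels). The Slits and the markers are highest in control 2 and ethanol 2 and lowest in control 1 and ethanol 3, while Robo2 lies above 0 in all 3 ethanol libraries.

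Slit2 and Slit3 each carry a copy of the microRNA gene Mir218, which is known to repress Robo receptors. In the counting annotation (Rnor_6.0), Mir218-1 lies on chromosome 14 from 66923083 to 66923192 and Mir218-2 on chromosome 10 from 20428661 to 20428770, each on its host's strand and between host exons. The mature sequences are shown because host and receptor were measured in the same libraries. Capitals mark the seed, bases 2 to 8.
rno-miR-218a-5p, from both genes: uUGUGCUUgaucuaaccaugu
rno-miR-218a-1-3p, from the gene in Slit2: aAACAUGGuuccgucaagcac
rno-miR-218a-2-3p, from the gene in Slit3: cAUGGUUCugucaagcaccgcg
The 5p product is the same from both genes, whereas the 3p products have different seeds. The sequences are from RefSeq (build GRCr8). Over the 6 libraries Mir218-1 had 9 reads and Mir218-2 had 3, and libraries made from polyadenylated RNA do not measure mature microRNAs.

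The srGAPs, the intracellular arm, hardly differed between groups. Srgap2 had 108, 117 and 113 CPM in the controls and 116, 112 and 110 CPM in the ethanol libraries, and was the steadiest member with 1.08 times between its highest and lowest libraries. Its log2 fold change was 0.00 in magnitude with a 95% interval of -0.13 to 0.13, which leaves changes beyond 0.914 to 1.09 times outside. Srgap3 had 138, 177 and 151 CPM in the controls and 157, 175 and 146 CPM in the ethanol libraries. Its log2 fold change was 0.03, with an interval of -0.22 to 0.28. Srgap1, which acts downstream of Robo1 in neuronal migration, had 29.2, 26.8 and 28.8 CPM in the controls and 26.1, 26.5 and 31.7 CPM in the ethanol libraries. Its log2 fold change was -0.01, with an interval of -0.22 to 0.20, and ethanol 3 was the highest library. The groups overlapped for each of the 3 srGAPs (edgeR quasi-likelihood, adjusted p = 1.0 for each).

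No member had exonic bases in common with a gene of its own strand. Slit3 alone shares 61 exonic bases with a gene on the opposite strand, and the counting used strand. Slit1 (chromosome 1, 260843481 to 260992366), Slit2 (chromosome 14, 66831848 to 67171491), Slit3 (chromosome 10, 19924200 to 20517918), Srgap1 (chromosome 7, 63968915 to 64251449), Srgap2 (chromosome 13, 48065280 to 48286888) and Srgap3 (chromosome 4, 144638782 to 144869961) are placed by Rnor_6.0.

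Beyond the members, 43 other genes of the pathway were listed by role, and 42 were tested. Of these, 0 had an adjusted p below 0.2 and 0 an unadjusted p below 0.05 (edgeR quasi-likelihood), and the other tools called 0 at an adjusted p below 0.2. Their median log2 fold change was 0.02, with 25 higher and 17 lower. Groups did not overlap for 1 of the 42 (2.38%, against 8.85% of all genes tested). This was Rac1, a GTPase that srGAPs act on, at 428 to 434 CPM in controls and 439 to 448 CPM after ethanol, a log2 fold change of 0.04.

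By role, the smallest unadjusted p among 14 co-receptors and other ligands was that of Cxcr4, a chemokine receptor whose signalling Slits dampen. Cxcr4 had 3.18, 4.17 and 3.74 CPM in the controls and 1.92, 4.10 and 2.36 CPM after ethanol, with overlapping groups (edgeR quasi-likelihood, unadjusted p = 0.176, adjusted p = 1.0, log2 fold change -0.41, exact permutation p = 0.3). Among 23 tested genes of actin and GTPase signalling it was Cap2, a cyclase-associated protein that recycles actin (edgeR quasi-likelihood, unadjusted p = 0.119, log2 fold change 0.21, exact permutation p = 0.4). Cap2 was at 109 to 113 CPM in the controls, at 143 and 140 CPM in ethanol 1 and 2 and at 102 CPM in ethanol 3. Without ethanol 3 its log2 fold change was 0.35 and its adjusted p 0.109 (edgeR quasi-likelihood), past the threshold, in the fit that called 83 of all genes against 0 with all libraries. Among 5 genes of receptor trafficking it was Prrg4 (edgeR quasi-likelihood, unadjusted p = 0.0872, log2 fold change -0.81, exact permutation p = 0.2), a relative of the fly Robo sorting protein commissureless, at only 0.156 to 0.535 CPM. Pak2, a kinase downstream of Rac and Cdc42, had 0 reads in every library. Whether its RNA was absent or its reads were left uncounted was not tested.

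Over the 6 libraries, the expressed genes whose log2 CPM followed Robo2 most closely were Tspan5, a tetraspanin (Pearson's r = 0.987, Spearman's rho = 0.886), Man1a2, a Golgi mannosidase (r = 0.985, rho = 0.943), and Osbpl10, a lipid-binding protein (r = 0.982, rho = 0.886). They were the closest of 14760 genes, of which 114 had r above 0.9, and with 6 points in 2 groups these values are descriptions. Tspan5 had 104, 98.0 and 102 CPM in the controls and 131, 130 and 111 CPM in the ethanol libraries. It was picked for following Robo2, so having ethanol 3 nearest to the controls came with that choice.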

How the data were processed

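RNA-seq libraries were made by the submitters from amygdala RNA of 6 saline and 6 ethanol rats, pooled in pairs, with a strand-specific kit for polyadenylated RNA and single-end reads of 100 nt. Per the file headers, the authors deposited raw counts, made with featureCounts 1.6.3 (reverse-stranded, exons summed per gene, Rnor_6.0) from reads aligned with STAR (2.7.0f per the labels), without normalization. Reads that mapped to several places were not counted, which can lower genes with near-identical copies.

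Symbols were matched by NCBI gene ID for 29322 of 38445 genes. Counts were analysed in R 4.3.3 with edgeR 4.0.16: filterByExpr (minimum 10 counts), TMM scaling (factors 0.976 to 1.01), the quasi-likelihood test and Benjamini-Hochberg adjustment over 18141 genes, with the study's threshold of 0.2. The standard error was the log2 fold change over the root of F. CPM and RPKM are TMM-scaled, and a prior count of 2 enters log2 CPM. Alternatives were DESeq2 1.42.0, limma-voom (limma 3.58.1), edgeR's likelihood ratio test, other scalings and filters, the replicate number as a block, and each library left out. The tests were checked on simulated data with larger changes than that of Robo2, so the check does not bear on changes of that size. P-values set the difference between the groups against the spread between pooled libraries, not between single rats. Within a group, libraries differed beyond counting error (chi-square per degree of freedom 15.3 to 72.6).

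Members and lists were chosen with earlier results of these data known. Named genes were the members and the pathway genes with an unadjusted p below 0.05 or the smallest p of their role. The 2 most counted markers of each list reported and the 3 genes most like Robo2 were also named. Those 3 genes were sought among tested genes with a mean of at least 1 CPM. Rac1, Nell2, Pak2 and the markers Tbr1, Otx2, Col1a2 and Ogn were added after their values were seen. The result of 1 further marker list is not reported here.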

Additional observations from a re-analysis of the deposited data

How the results depend on the processing

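Robo2 kept its direction under every alternative, with a log2 fold change of 0.24 to 0.37 over the fits without 1 library, and 0.26 to 0.29 over the others. For the other 9 members, 21 values changed sign. With each library left out, the log2 fold changes ran -0.028 to 0.073 for Robo1, -0.25 to 0.054 for Robo3, -0.16 to 0.0049 for Robo4, -0.26 to 0.21 for Slit1, -0.42 to 0.14 for Slit2, -0.20 to 0.21 for Slit3, -0.10 to 0.042 for Srgap1, -0.037 to 0.024 for Srgap2, -0.057 to 0.13 for Srgap3. With library size alone, Robo1 was at -0.017 and the median of all genes moved from 0.01 to -0.02. DESeq2 called 75 genes of the whole table and edgeR's likelihood ratio test 77, against 0, and leaving out 1 library gave 0 to 83 genes, 0 to 1 member and 0 to 1 pathway gene, in each case the highest without ethanol 3 (without ethanol 1, 4 genes). The cause was not tested. The count of members whose groups did not overlap stayed 1 under both other scalings, an alternative chosen after seeing the data.

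The libraries share replicate numbers but not rats. With the replicate number as a block, 0 members, 0 pathway genes and 0 genes in all had an adjusted p below 0.2, and that of Robo2 was 0.634. Deviations from the group means correlated by 0.0264, 0.388 and 0.211 for numbers 1, 2 and 3 over 14241 genes, and 3 of the 6 libraries correlated best with their own number, so the numbers were not taken as pairs. P-values rest on 3 pooled libraries a group. Robo3 and Robo4 had the fewest reads, 116 to 242 per library, and the part of depth in their error was not tested.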

Other observations

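The ligands were also expressed relative to the pallial markers they followed, as CPM per 100 CPM of the summed list, a ratio formed after the data were seen and given without a test. Slit1 had 17.3, 17.8 and 17.0 in the controls and 15.3, 14.6 and 15.7 in the ethanol libraries, so the groups did not overlap. Slit3 had 5.56 in each control and 5.07, 4.51 and 5.41 in the ethanol libraries, again without overlap. Slit2 had 7.03, 8.48 and 7.10 in the controls and 5.52, 5.68 and 7.09 in the ethanol libraries, with overlapping groups. When Slc17a7 was left out of the list, Slit1 had 51.0 to 64.1 in the controls and 51.1 to 51.8 in the ethanol libraries, and the groups of all 3 ligands overlapped. Over Slc17a7 alone, Slit1 had 26.1, 24.7 and 24.4 in the controls and 21.7, 20.4 and 22.7 in the ethanol libraries, without overlap. Slit3 had 8.41, 7.71 and 8.00 in the controls and 7.20, 6.32 and 7.80 in the ethanol libraries, with overlap. Slit2 overlapped here too. The separation therefore depended on which markers formed the denominator. The share of all genes that separate on such ratios was not computed.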
